A study of Homo sapiens with 12 samples.

Results

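The genes of cholesterol and fatty acid synthesis that sterol regulatory element-binding proteins (SREBPs) control were followed in BE(2)-C human neuroblastoma cells over 3 days after transfection. A list of 32 genes was taken by symbol, and 31 of them had probes (48 probes, of 47323 on the array). All 31 were among the 12323 genes tested. They comprise 17 genes of sterol synthesis, 5 of SREBP control and sterol transport (SREBF1, SREBF2, SCAP, INSIG1, STARD4) and 9 of fatty acid synthesis. FDFT1 was not analysed here. The groups were cells given 2 µg of pTRex-GRHL1, a plasmid for forced expression of the grainyhead-like transcription factor GRHL1, or 2 µg of the empty vector pTRex-Dest30, with total RNA taken at 24, 48 and 72 h. Each of the 6 groups had 2 Illumina BeadChip arrays (12 arrays). All cells were of this 1 line, transfected with effectene and grown in DMEM with fetal bovine serum. No untransfected culture is among the 12 arrays. Nothing in the labels tells separate cultures from repeat arrays, so the p-values cover the spread between arrays, which may be technical.

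SREBPs are made as membrane proteins of the endoplasmic reticulum. When cholesterol there is low, the escort protein SCAP carries them to the Golgi, where proteases release the part that enters the nucleus and turns on its targets, and INSIG proteins hold SCAP back when sterols are plentiful. SREBP-2, the product of SREBF2, is best known for the sterol pathway and SREBP-1, the product of SREBF1, for fatty acid synthesis, and both work together with the promoter-binding factors NF-Y and Sp1. Brain tissue makes its cholesterol locally.

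With both plasmids averaged, part of the list was lower at 48 h than at 24 h. Of the 31 genes, 10 fell and 0 rose between 24 h and 48 h, and 8 of those 10 were among the 17 sterol synthesis genes, 9 of which were not called. Of all genes tested, 0.292% were called lower at 48 h. Within GRHL1 cells alone 2 genes were called lower at 48 h, against 0.0568% of all genes, and within empty vector cells 0 were called, against 0.00811%. The changes were largest for MVD, HMGCS1 and DHCR7, which fell to 0.463, 0.538 and 0.542 times their 24 h levels. In fatty acid synthesis, 1 of 9 genes fell, ACSS2, and in SREBP control 1 of 5, INSIG1. Between the plasmids 1 gene of the list passed the threshold: ACSS2 was 1.24 times as high in GRHL1 cells as in empty vector cells over the 3 times, against 1.71% of all genes called. That call was lost in 10 of 12 fits that left out 1 array.

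Promoter sequence upstream of 8 of these genes is shown because the genes moved together or stood apart from those that did. The first 6 fell by 48 h, SREBF2 codes for the sterol-branch SREBP and did not pass the test, and ACACA had the smallest difference among the fatty acid genes. Each line gives the 250 bases before the RefSeq gene start in GRCh38.p14, 5′ to 3′ on the gene's strand. Capitals mark the NF-Y box CCAAT, or ATTGG where it lies on the opposite strand, and in SREBF2 also the letters TCACNCCAC of a sterol regulatory element.
HMGCS1 (chr5:43313413-43313662, minus strand): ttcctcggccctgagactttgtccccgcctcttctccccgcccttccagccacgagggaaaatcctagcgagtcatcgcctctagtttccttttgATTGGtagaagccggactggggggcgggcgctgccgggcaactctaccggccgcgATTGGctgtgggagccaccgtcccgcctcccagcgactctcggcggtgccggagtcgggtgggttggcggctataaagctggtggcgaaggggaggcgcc
MVD (chr16:88663092-88663341, minus strand): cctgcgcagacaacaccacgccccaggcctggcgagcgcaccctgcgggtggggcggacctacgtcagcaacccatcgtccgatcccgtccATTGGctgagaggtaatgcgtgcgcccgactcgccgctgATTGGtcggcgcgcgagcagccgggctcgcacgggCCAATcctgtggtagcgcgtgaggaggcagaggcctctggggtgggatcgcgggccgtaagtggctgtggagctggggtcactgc
LSS (chr21:46228775-46229024, minus strand): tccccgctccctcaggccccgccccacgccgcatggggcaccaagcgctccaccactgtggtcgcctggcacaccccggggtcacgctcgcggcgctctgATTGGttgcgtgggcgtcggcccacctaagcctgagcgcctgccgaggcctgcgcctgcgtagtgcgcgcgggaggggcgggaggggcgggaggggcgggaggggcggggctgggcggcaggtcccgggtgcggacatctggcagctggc
NSDHL (chrX:152830813-152831062, plus strand): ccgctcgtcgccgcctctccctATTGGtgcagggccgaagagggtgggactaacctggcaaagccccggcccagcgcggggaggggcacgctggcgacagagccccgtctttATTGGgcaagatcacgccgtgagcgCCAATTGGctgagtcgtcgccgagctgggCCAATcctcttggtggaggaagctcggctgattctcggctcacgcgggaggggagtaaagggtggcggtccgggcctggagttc
DHCR7 (chr11:71448394-71448643, minus strand): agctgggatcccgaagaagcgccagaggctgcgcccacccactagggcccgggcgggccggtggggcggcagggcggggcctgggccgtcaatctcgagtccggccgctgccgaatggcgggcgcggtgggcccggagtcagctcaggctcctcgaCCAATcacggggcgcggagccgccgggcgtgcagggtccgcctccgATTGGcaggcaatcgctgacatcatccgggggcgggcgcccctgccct
ACSS2 (chr20:34874739-34874988, plus strand): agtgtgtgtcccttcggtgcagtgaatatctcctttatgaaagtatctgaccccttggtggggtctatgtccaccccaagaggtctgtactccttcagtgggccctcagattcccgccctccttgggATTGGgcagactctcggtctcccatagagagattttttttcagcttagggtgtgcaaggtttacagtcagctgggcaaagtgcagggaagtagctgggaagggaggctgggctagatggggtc
SREBF2 (chr22:41832855-41833104, plus strand): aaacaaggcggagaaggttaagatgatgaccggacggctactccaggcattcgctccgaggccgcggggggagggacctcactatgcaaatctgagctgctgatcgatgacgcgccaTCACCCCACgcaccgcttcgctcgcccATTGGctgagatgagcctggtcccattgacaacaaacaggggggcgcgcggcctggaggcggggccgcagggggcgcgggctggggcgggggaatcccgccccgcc
ACACA (chr17:37406837-37407086, minus strand): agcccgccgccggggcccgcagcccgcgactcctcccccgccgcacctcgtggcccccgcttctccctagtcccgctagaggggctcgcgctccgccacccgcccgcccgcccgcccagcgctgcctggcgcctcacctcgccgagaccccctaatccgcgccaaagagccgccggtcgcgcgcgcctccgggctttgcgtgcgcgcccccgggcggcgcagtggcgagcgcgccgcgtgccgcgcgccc

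RefSeq promoter windows, from 250 bases before to 50 after the start, were found for 28 of the 32 genes. ACAT2, FASN, FDFT1 and SQLE were not matched. In 4 motif searches on both strands, chosen with the time course known, the NF-Y box CCAAT lay in 18 of 28 windows. It lay in all 9 windows of genes that fell by 48 h and in 9 of 19 windows of the other genes. Over all 27305 windows the share was 35.7%. Those windows were not limited to genes tested on the arrays, so the shares over all windows come from an unlike set. MVD carried 3 such boxes, with first bases at -159, -120 and -85 from the start. NSDHL carried 5, of which those at -113 and -110 overlap on opposite strands. HMGCS1 carried 2, at -155 and -100, and DHCR7 2, at -94 and -48. The Sp1 box GGGCGG lay in 26 of 28 windows, against 44.6% of all windows, and in 8 of the 9 windows of genes that fell. The letters TCACNCCAC of a sterol element, searched without mismatches, lay in 1 of 28 windows, that of SREBF2 at -133, against 1.15% of all windows. A grainyhead core, AACNNGTT, lay in 0 of 28, against 3.5%. None of these motifs contains another, and a match describes the letters only. Lack of a match does not show that an element is absent.

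The transfected gene checked the plasmid labels, though not the times. The brightest GRHL1 probe, ILMN_1651286, read 9111 and 12964 units in GRHL1 cells and 97.9 and 122.8 units in empty vector cells at 24 h, on the deposited normalized intensity scale. At 48 h it read 6225 and 4669 units with GRHL1 and 114.6 and 92.3 with empty vector, and at 72 h 5968 and 5459 with GRHL1 and 103.3 and 103.9 with empty vector. The other GRHL1 probes, ILMN_1769934 and ILMN_1795767, did not show this rise. They read 117.5 to 134 and 95.8 to 122.6 units over the 12 arrays. Arrays detected 17950 to 19427 probes each, and the number of arrays limits the precision. Markers of noradrenergic neuroblastoma were detected on every array for 11 of the 13 genes listed (11 tested). The counts were 4 of 7 listed for fibroblasts (5 tested), 1 of 7 for epithelium (2 tested) and 1 of 5 for leukocytes (1 tested). The summed intensity of the noradrenergic markers was 67431 to 68627 at 24 h, 69625 to 72765 at 48 h and 71881 to 74157 at 72 h, and its part in the time course was not tested. The fibroblast markers summed to 4033 to 4439 in GRHL1 cells and 4260 to 4946 in empty vector cells, which was likewise not tested. A second deposited table gives conflicting sample names for 7 of the 12 arrays, but both tables name the same 4 arrays as 24 h.

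Of the 31 genes, 29 were detected on all 12 arrays, SREBF2 on 10 and STARD4 on 5. Array intensities ran from 115, for STARD4, to 7881, for SCD. All but STARD4 stood above the detection limit of 128.3 units on every array. Array medians lay near 120 units (119.7 to 121), so printed intensities hold a background that was modelled and removed before the tests. Log2 differences and the folds made from them are on that corrected scale with an offset of 16, which understates the changes of dim genes.

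Of the first enzymes of the pathway, all but PMVK fell by 48 h. HMGCS1, the cytosolic HMG-CoA synthase that feeds the pathway, read 5739 and 5878 units in GRHL1 cells and 5137 and 5370 in empty vector cells at 24 h, 2964 and 3502 with GRHL1 and 2877 and 2728 with empty vector at 48 h, and 3468 and 4376 with GRHL1 and 3593 and 4595 with empty vector at 72 h. All arrays of both later times were below all 24 h arrays. At 48 h against 24 h its log2 difference was -0.89 ± 0.11 (limma's moderated SE, used throughout; adjusted p = 0.00726), and at 72 h against 24 h it was -0.48 ± 0.11, which did not pass (adjusted p = 0.0843). ACAT2, the cytosolic acetoacetyl-CoA thiolase of the step before it, read 4905 and 5533 with GRHL1 and 5169 and 5254 with empty vector at 24 h, 3056 and 3311 with GRHL1 and 3509 and 3386 with empty vector at 48 h, and 3621 and 3755 with GRHL1 and 3497 and 4131 with empty vector at 72 h. It fell at 48 h to 0.631 times (-0.67 ± 0.08, adjusted p = 0.00683) and at 72 h to 0.715 times its 24 h level (-0.48 ± 0.08, adjusted p = 0.023). A dim second ACAT2 probe, detected on 7 arrays, gave -0.68 ± 0.17 at 48 h.

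MVK, the kinase that phosphorylates mevalonate, read 360 and 332 units with GRHL1 and 322 and 345 with empty vector at 24 h, 243 and 242 with GRHL1 and 245 and 235 with empty vector at 48 h, and 261 and 283 with GRHL1 and 235 and 279 with empty vector at 72 h. It fell at both later times, by 0.64 ± 0.09 at 48 h (adjusted p = 0.0152) and by 0.47 ± 0.09 at 72 h on the log2 scale (adjusted p = 0.0488). MVD, the decarboxylase that makes isopentenyl diphosphate, had the largest fall of the 31 genes. It read 502 and 532 with GRHL1 and 482 and 478 with empty vector at 24 h, 264 and 249 with GRHL1 and 268 and 287 with empty vector at 48 h, and 286 and 327 with GRHL1 and 294 and 349 with empty vector at 72 h. The log2 difference was -1.11 ± 0.09 at 48 h (adjusted p = 0.00199) and -0.81 ± 0.09 at 72 h (adjusted p = 0.00707), and no later array reached a 24 h array. PMVK, the kinase between MVK and MVD, did not share this course: its values spanned 572 to 733 at 24 h and 643 to 807 at 48 h (0.08 ± 0.10, adjusted p = 0.765).

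**Figure D1:**
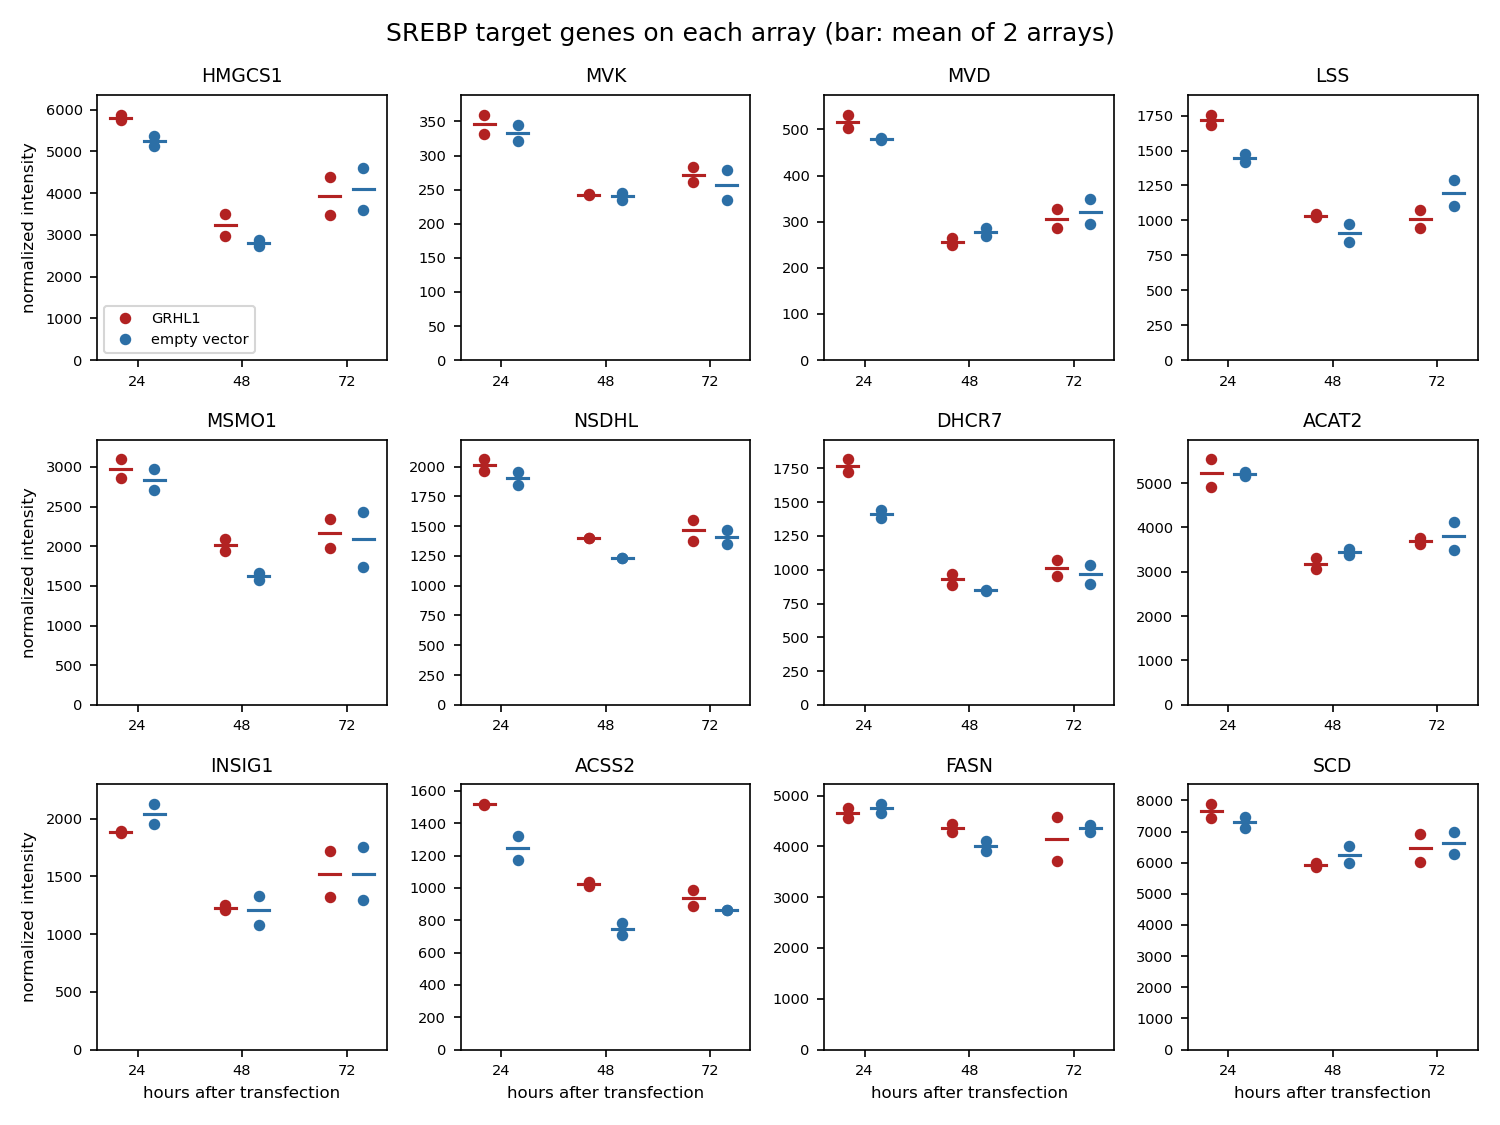
Normalized intensity of 12 genes on each array against hours after transfection, with GRHL1 cells in red left of empty vector cells in blue. Points are arrays and bars are the mean of 2 arrays. The first 10 genes were called lower at 48 h, with all their 48 h arrays below all their 24 h arrays. FASN and SCD share that separation but with smaller differences, -0.17 and -0.30, that were not called.

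Among the later enzymes, which close and trim the sterol rings, 4 fell by 48 h: LSS, MSMO1, NSDHL and DHCR7. LSS, lanosterol synthase, read 1757 and 1684 units with GRHL1 and 1472 and 1416 with empty vector at 24 h, 1022 and 1048 with GRHL1 and 843 and 975 with empty vector at 48 h, and 945 and 1073 with GRHL1 and 1106 and 1288 with empty vector at 72 h. It fell to 0.598 times at 48 h (-0.74 ± 0.09, adjusted p = 0.00683) and 0.682 times at 72 h (-0.55 ± 0.09, adjusted p = 0.0194). At 72 h it was the GRHL1 arrays that lay lower, without reaching the threshold for that plasmid difference (-0.26 ± 0.12, adjusted p = 0.687). MSMO1, the methylsterol monooxygenase, read 2861 and 3095 with GRHL1 and 2970 and 2711 with empty vector at 24 h, 2094 and 1940 with GRHL1 and 1579 and 1668 with empty vector at 48 h, and 1980 and 2341 with GRHL1 and 1741 and 2437 with empty vector at 72 h. Its fall was called at 48 h (-0.71 ± 0.11, adjusted p = 0.0308) and not at 72 h (-0.48 ± 0.11, adjusted p = 0.103). A second MSMO1 probe read -0.76 ± 0.14 at 48 h but only -0.15 ± 0.14 at 72 h (adjusted p = 0.68 in the limma fit of all probes). A dim one read -0.15 ± 0.08 at 48 h and -0.13 ± 0.08 at 72 h.

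NSDHL, the sterol dehydrogenase that acts after MSMO1, read 1961 and 2060 with GRHL1 and 1954 and 1849 with empty vector at 24 h, 1400 and 1399 with GRHL1 and 1235 and 1230 with empty vector at 48 h, and 1377 and 1554 with GRHL1 and 1351 and 1464 with empty vector at 72 h. It fell to 0.66 times at 48 h (-0.60 ± 0.07, adjusted p = 0.00683) and to 0.725 times at 72 h (-0.46 ± 0.07, adjusted p = 0.0178). DHCR7, the reductase of the last step to cholesterol, read 1724 and 1817 with GRHL1 and 1440 and 1384 with empty vector at 24 h, 887 and 971 with GRHL1 and 844 and 851 with empty vector at 48 h, and 953 and 1075 with GRHL1 and 898 and 1033 with empty vector at 72 h. The log2 difference was -0.89 ± 0.08 at 48 h (adjusted p = 0.00199) and -0.72 ± 0.08 at 72 h (adjusted p = 0.00629). Its second probe, fitted with all 16501 probes, gave -0.84 ± 0.09 and -0.56 ± 0.09 (adjusted p = 0.00621 and 0.0227).

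The other 9 sterol genes were not called at 48 h. IDI1, FDPS and SQLE, which make the isoprenoids and epoxidise squalene, had log2 differences of -0.58 ± 0.12, -0.45 ± 0.10 and -0.38 ± 0.08 (adjusted p = 0.081, 0.0827 and 0.0827), and EBP, a sterol isomerase, -0.35 ± 0.07 (adjusted p = 0.0702). CYP51A1, the lanosterol demethylase, had -0.41 ± 0.13 (adjusted p = 0.227). TM7SF2, a sterol reductase, and SC5D, a sterol desaturase, had -0.22 ± 0.09 and -0.30 ± 0.08. PMVK and HSD17B7 were the 2 sterol genes above 0, HSD17B7 at 0.06 ± 0.15. Over the 17 sterol genes the median log2 difference of 48 h minus 24 h was -0.58, and 15 of 17 were below 0. Over all genes tested the median was 0.01 and 48.4% were below 0.

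Among the control genes, INSIG1, the sterol-sensing retention protein and itself an SREBP target, read 1874 and 1894 units with GRHL1 and 1955 and 2127 with empty vector at 24 h, 1207 and 1251 with GRHL1 and 1081 and 1331 with empty vector at 48 h, and 1324 and 1720 with GRHL1 and 1292 and 1755 with empty vector at 72 h. It fell at 48 h to 0.606 times (-0.72 ± 0.13, adjusted p = 0.0433), and at 72 h the difference was -0.40 ± 0.13 (adjusted p = 0.186). A dim INSIG1 probe gave -0.43 ± 0.15 at 48 h. The genes for the SREBPs and their escort did not pass: SREBF1 had -0.20 ± 0.12 at 48 h and -0.31 ± 0.12 at 72 h (adjusted p = 0.499 and 0.249). SREBF2, at 135 to 162 units over all arrays, had 0.08 ± 0.13 and -0.04 ± 0.13, and SCAP 0.01 ± 0.07 and -0.09 ± 0.07. STARD4, a carrier of sterol between membranes, had -0.53 ± 0.13 at 48 h (adjusted p = 0.117) and -0.37 ± 0.13 at 72 h (adjusted p = 0.213). It was close to background, at 156 and 125 units with GRHL1 and 152 and 159 with empty vector at 24 h, and at 120 and 129 with GRHL1 and 124 and 115 with empty vector at 48 h.

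In the fatty acid branch the only gene called in the time course was ACSS2, the cytosolic acetyl-CoA synthetase. ACSS2 read 1519 and 1515 units with GRHL1 and 1171 and 1320 with empty vector at 24 h, 1038 and 1010 with GRHL1 and 707 and 786 with empty vector at 48 h, and 890 and 990 with GRHL1 and 864 and 862 with empty vector at 72 h. It fell to 0.617 times at 48 h (-0.70 ± 0.08, adjusted p = 0.00683) and to 0.638 times at 72 h (-0.65 ± 0.08, adjusted p = 0.00781). Its second bright probe gave -0.70 ± 0.09 and -0.67 ± 0.09, while a dim probe near background disagreed at 72 h (-0.27 ± 0.08 at 48 h and 0.21 ± 0.08 at 72 h). The other 8 had smaller differences, none called. With ACSS2, 9 of 9 fatty acid genes were below 0 at 48 h against 24 h, against 48.4% of all genes. At an unadjusted p under 0.05 by limma there were 3 of 9, against 13.7% of all genes. FASN, fatty acid synthase, ranged from 4562 to 4832 at 24 h, 3908 to 4440 at 48 h and 3721 to 4576 at 72 h, with log2 differences of -0.17 ± 0.08 and -0.15 ± 0.08 against 24 h. SCD, the stearoyl-CoA desaturase, ranged from 7115 to 7881, 5876 to 6534 and 6037 to 6980 at the 3 times, and its differences were -0.30 ± 0.08 and -0.19 ± 0.08 (adjusted p = 0.138 and 0.266). FADS1, a polyunsaturated fatty acid desaturase, had -0.26 ± 0.09 and -0.29 ± 0.09 (adjusted p = 0.268 and 0.186). ACACA, the carboxylase that makes malonyl-CoA, and ACLY, which makes cytosolic acetyl-CoA from citrate, had -0.02 ± 0.08 and -0.07 ± 0.07 at 48 h. ELOVL6, an elongase, LPIN1, a phosphatidate phosphatase, and FADS2 had -0.14 ± 0.09, -0.16 ± 0.09 and -0.08 ± 0.10.

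Over the list, 13 further probes were detected on at least 2 arrays, and 13 of 13 had the sign of the gene's brightest probe at 48 h against 24 h. A dim LSS probe, detected on 8 arrays, gave -0.27 ± 0.10, beside -0.74 ± 0.09 for the bright one.

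The branches can be set side by side by counts. At 48 h against 24 h, 8 of 17 sterol, 1 of 5 control and 1 of 9 fatty acid genes were called lower, against 0.292% of all genes tested. Their median log2 differences were -0.58, -0.20 and -0.16, and the median over the 31 genes was -0.35. At 72 h against 24 h, 6 of 17, 0 of 5 and 1 of 9 were called lower, 7 of the 31 genes in all, against 0.365% of all genes, with medians of -0.38, -0.31 and -0.15. These 2 comparisons share the 24 h arrays. All 4 arrays of 48 h lay below all 4 arrays of 24 h for 17 of the 31 genes, against 4.57% of all genes. The 17 were 13 sterol, 1 control and 3 fatty acid genes. For 72 h the count was 14 (4.72% of all genes), and for both later times together 13 (1.8%). The difference between the branches was not tested.

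Since the 2 tables name the same arrays as 24 h, the 8 later arrays were also set, as 1 set, against 24 h, a comparison added after the conflict was seen. It called 12 of the 31 genes lower, against 0.617% of all genes. The 12 were the 10 called at 48 h with FDPS (-0.42 ± 0.08, adjusted p = 0.0473) and EBP (-0.30 ± 0.06, adjusted p = 0.047). MVD had -0.96 ± 0.08 and DHCR7 -0.80 ± 0.07 (adjusted p = 0.00134 each). The difference itself does not depend on the conflict, though its SE does. FDPS and EBP lost their calls without any 1 of the 12 arrays (adjusted p of 0.0607 to 0.177 and 0.0535 to 0.142), and without the first GRHL1 array of 24 h 6 genes were called.

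Calls differed in how they held when 1 array was left out. At 48 h against 24 h, MVD, DHCR7, HMGCS1, LSS, NSDHL, ACAT2 and ACSS2 kept their calls without any 1 of the 12 arrays. MVK, MSMO1 and INSIG1 lost theirs without any 1 of the 8 arrays of 24 h and 48 h, with adjusted p of 0.0518 to 0.0863, 0.0696 to 0.125 and 0.0918 to 0.166. At 72 h against 24 h, MVD, DHCR7 and ACSS2 kept their calls throughout. LSS and NSDHL lost theirs without either GRHL1 array or the first empty vector array at 24 h, or without the first array of either plasmid at 72 h (adjusted p of 0.0611 to 0.0853 and 0.0607 to 0.0774). ACAT2 lost its call without any 24 h array, either GRHL1 array at 72 h or the first empty vector array at 72 h (0.0557 to 0.0924). MVK kept its call only without the second empty vector array at 72 h (otherwise 0.0824 to 0.164).

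The course could be read in each plasmid on separate arrays. In GRHL1 cells 2 genes fell at 48 h, MVD (-1.25 ± 0.13, adjusted p = 0.00858) and DHCR7 (-0.99 ± 0.11, adjusted p = 0.0103), against 0.0568% of all genes called lower. At 72 h GRHL1 cells had 4, MVD (-0.92 ± 0.13), DHCR7 (-0.85 ± 0.11), LSS (-0.82 ± 0.12) and ACSS2 (-0.74 ± 0.11, adjusted p of the 4 from 0.0229 to 0.0319), against 0.0893%. In empty vector cells 0 genes of the list were called at 48 h by limma, against 0.00811% of all genes, and 0 at 72 h, against 0.0568%. At an unadjusted p under 0.05 the empty vector counts were 17 and 13 of 31, against 10.0% and 10.7% of all genes. With a trended and robust variance model the adjusted counts were 11 and 7 of 31 in GRHL1 cells, where 95 and 103 of all 12323 genes were called, and 12 and 5 in empty vector cells, where 56 and 74 were. The difference between the plasmids' courses was called for 0 of 31 genes. For MVD the empty vector difference was -0.97 ± 0.13 at 48 h (adjusted p = 0.0655), and for HMGCS1 it was -0.92 ± 0.15, beside -0.86 ± 0.15 in GRHL1 cells. The calls within GRHL1 cells were less firm: at 48 h both were lost without any 1 of the 4 GRHL1 arrays of 24 h and 48 h (0.0673 to 0.199), and at 72 h DHCR7 lost its call without any 1 of 4 arrays, MVD and LSS without any 1 of 8 and ACSS2 without any 1 of 10 (0.0512 to 0.261). Both plasmids were below 0 at 48 h for 25 of the 31 genes, against 27.9% of all genes, and at 72 h for 28 of 31, against 28.4%. Across the 31 genes the 2 plasmids' differences had a Pearson r of 0.865 at 48 h and 0.759 at 72 h, and across all genes of 0.245 and 0.299. Genes are not independent replicates, so these values are a description.

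**Figure D2:**
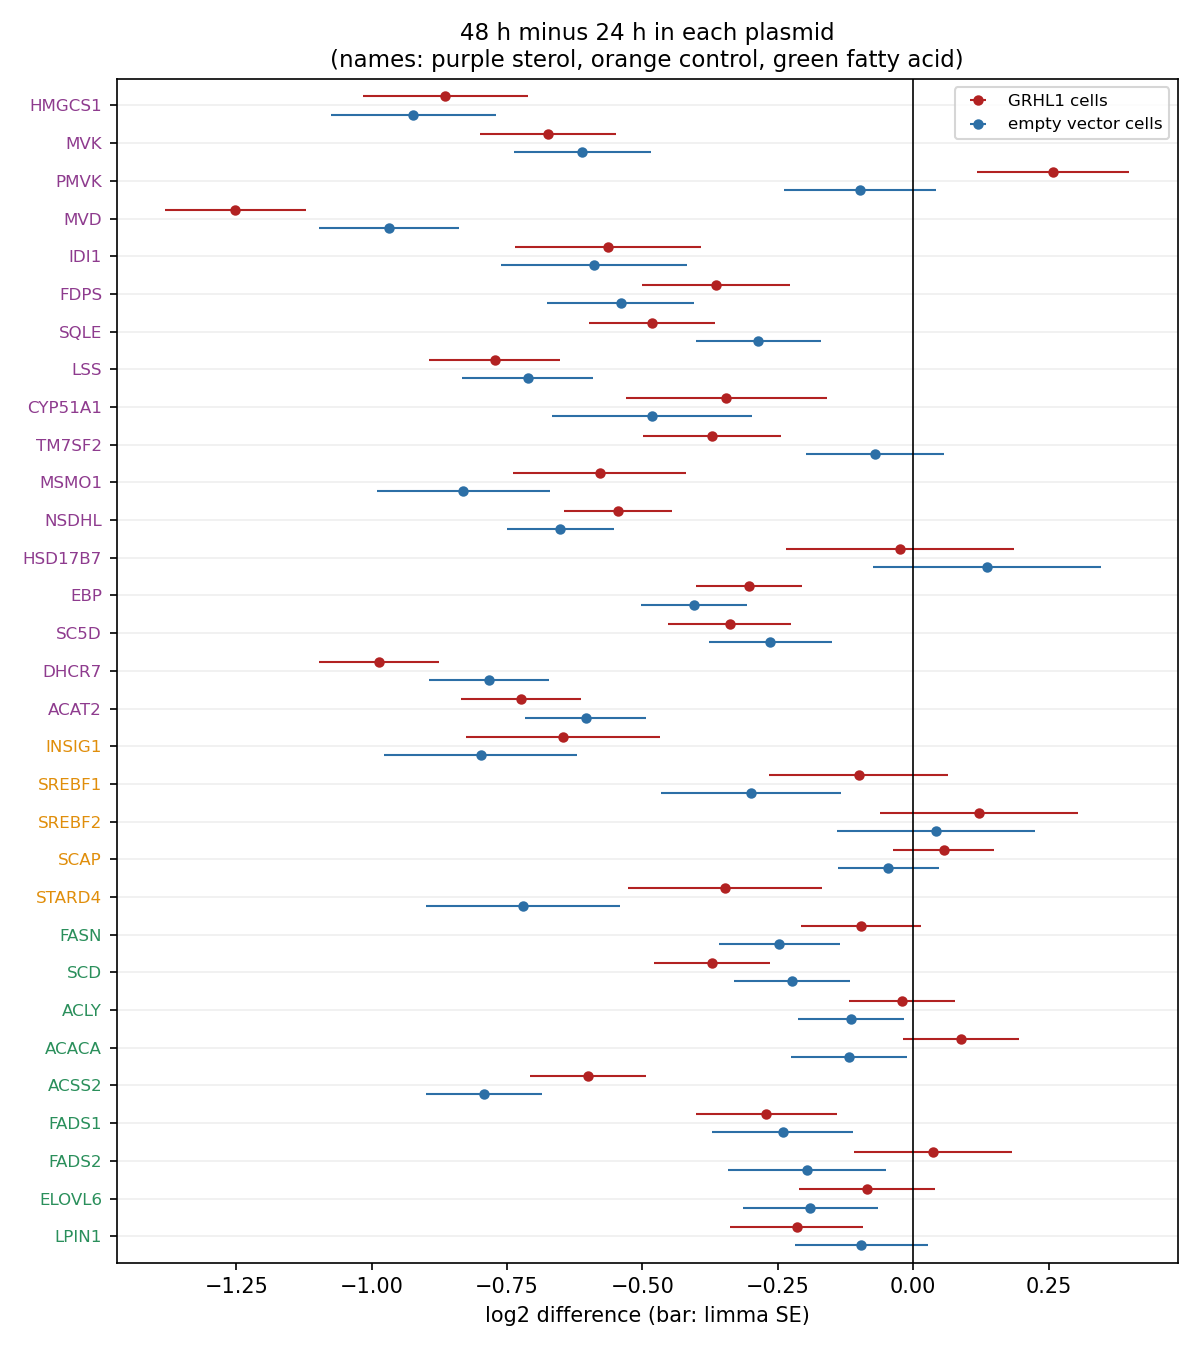
Log2 difference of 48 h minus 24 h for each of the 31 genes, in GRHL1 cells (red, upper) and empty vector cells (blue, lower), with limma's standard error as bars. MVD, DHCR7 and HMGCS1 lie farthest to the left in GRHL1 cells and MVD, HMGCS1 and MSMO1 in empty vector cells, and most fatty acid genes, in green at the bottom, lie near 0.

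**Figure D3:**
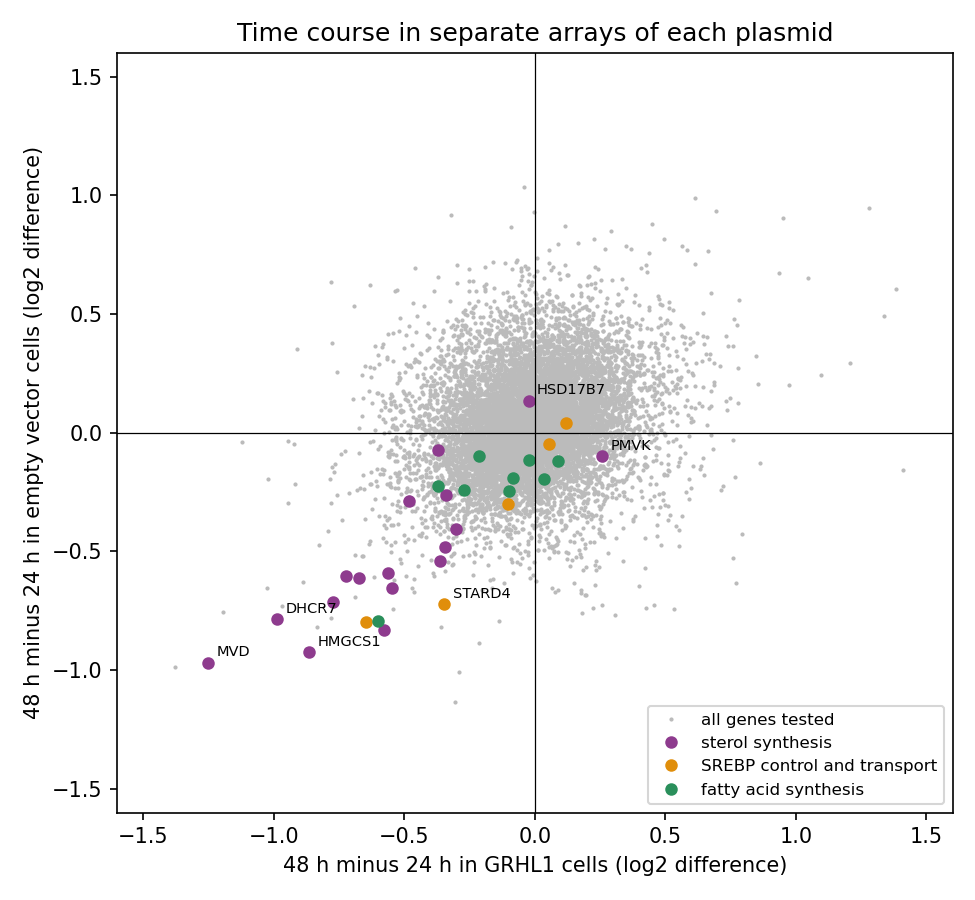
Log2 difference of 48 h minus 24 h in GRHL1 cells on the horizontal axis and in empty vector cells on the vertical axis, for all 12323 genes tested in grey and the 31 genes in colour by branch. Of the 31 genes 25 lie below 0 on both axes, at the lower left.

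Between 48 h and 72 h 0 of the 31 genes were called, against 0.0243% of all genes, and 7 had an unadjusted p under 0.05 by limma, against 8.28% of all genes. This comparison rests on which later arrays are 48 h and which 72 h, where the 2 tables conflict. Of the sterol genes 1 of 17 had a log2 difference below 0, against 47.9% of all genes, and their median was 0.17, but none was called. HMGCS1 had 0.41 ± 0.11 and MVD 0.30 ± 0.09 (adjusted p = 0.341 and 0.439). For 2 genes, SQLE and SC5D, all 72 h arrays lay above all 48 h arrays, against 2.43% of all genes. SC5D read 1449 and 1439 with GRHL1 and 1256 and 1400 with empty vector at 72 h, and 1148 and 1217 with GRHL1 and 1097 and 1189 with empty vector at 48 h. All 10 genes called at 48 h had their 72 h mean between the 48 h and 24 h means. They were picked by their fall at 48 h, which itself favours this order, so the count is only a description. In GRHL1 cells alone, LSS and ACSS2 were not above their 48 h means at 72 h. The fatty acid genes had a median of 0.02 and the control genes one of -0.10.

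The GRHL1 plasmid against empty vector gave few differences in this pathway. Averaged over the 3 times, 1 of 31 genes was called, against 1.71% of all genes, so by calls the list was near the background. By sign it leaned upward: 8 of 31 averaged differences were below 0, against 53.4% of all genes. The medians were 0.062 and -0.008. Below 0 at 24, 48 and 72 h were 9, 7 and 16 of 31, against 45.3%, 56.7% and 53.8% of all genes. This lean was not tested. At 24 h, 48 h and 72 h apart, 0 genes were called (lowest adjusted p = 0.353, 0.125 and 0.687), against 0.381%, 0.446% and 0.325% of all genes. At an unadjusted p under 0.05 these counts were 6 for the average and 3, 3 and 0 at the single times, against 12.2%, 8.77%, 8.3% and 7.45% of all genes, so the single times were near or under the background. The change of the plasmid difference with time was called for 0 of 31 (lowest adjusted p = 0.838, 1 gene at an unadjusted p under 0.05, against 5.4% of all genes), against 0.00811% of all genes called. The averaged differences ran from -0.21 ± 0.08 for FADS2 to 0.31 ± 0.06 for ACSS2, with standard errors from 0.05 to 0.12. Differences larger than these standard errors also went uncalled, as 0.23 ± 0.08 for FADS1 in the average and 0.49 ± 0.11 for ACSS2 at 48 h. A gene of the list could therefore differ by such amounts and not be called. A second SREBF1 probe, detected on 11 arrays at 129 to 176 units, had 0.58 ± 0.11 at 72 h in the fit of all probes (adjusted p = 0.0857). The brightest SREBF1 probe went the other way at 72 h, at -0.11 ± 0.17.

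The called gene was ACSS2, which makes acetyl-CoA from acetate. At each time both GRHL1 arrays were above both empty vector arrays, by 0.30 ± 0.11 at 24 h, 0.49 ± 0.11 at 48 h and 0.13 ± 0.11 at 72 h on the log2 scale. The average was 0.31 ± 0.06 (adjusted p = 0.0386). A second bright probe, ILMN_2336595, gave 0.32 ± 0.07, and a dim one, ILMN_1697510, gave 0.11 ± 0.06, in the fit of all probes (adjusted p = 0.0793 and 0.513). The call held without the second empty vector array of 24 h or that of 48 h and was lost without any other single array (adjusted p of 0.0601 to 0.119). The called probe itself missed the threshold when every probe was tested (adjusted p = 0.0514) and without a detection filter (adjusted p = 0.14). The next genes by p were FADS1 (0.23 ± 0.08, adjusted p = 0.222), DHCR7 (0.19 ± 0.06, adjusted p = 0.256) and SCAP (0.15 ± 0.05, adjusted p = 0.291). FADS1 read 1774 and 1580 with GRHL1 and 1404 and 1379 with empty vector at 24 h, and its arrays overlapped at 72 h. FADS2, also a fatty acid desaturase, had -0.21 ± 0.08 (adjusted p = 0.342) at 151 to 201 units. In the control branch the second gene by p was SREBF2 at 0.14 ± 0.11 (adjusted p = 0.664), and in the sterol branch NSDHL at 0.11 ± 0.06 (adjusted p = 0.481). Of the 31 genes, 11 had positive differences at all 3 times and 1, FADS2, negative ones. The share of all genes with such signs was not counted, and these counts were not tested.

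**Figure D4:**
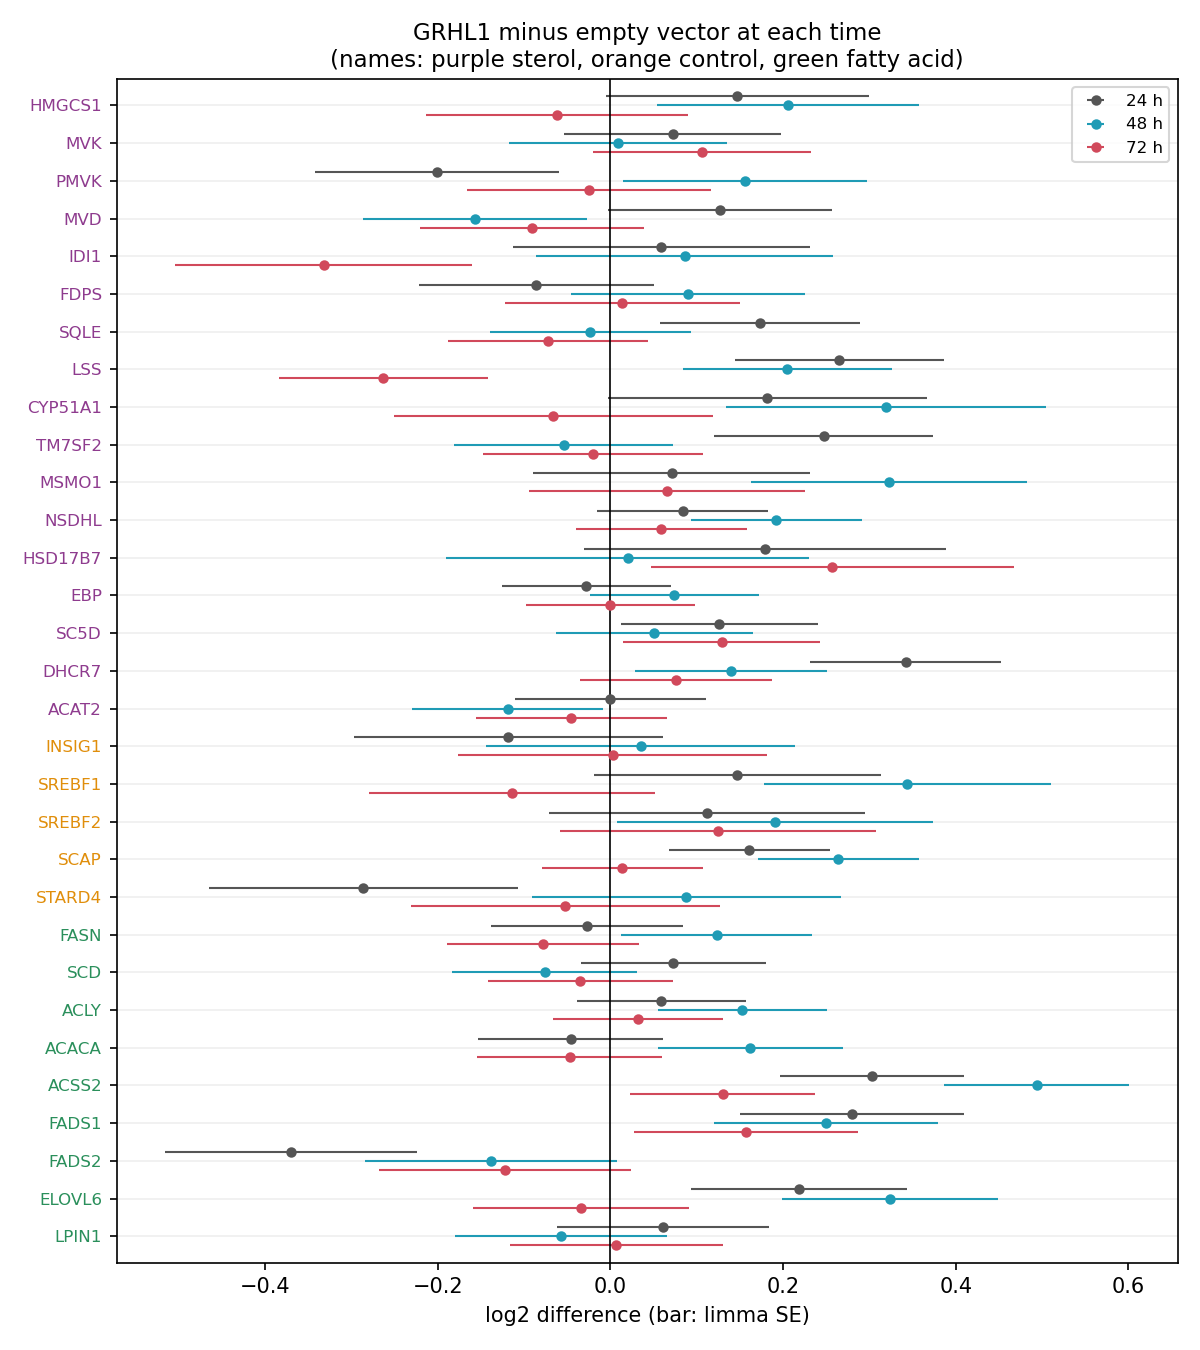
Log2 difference of GRHL1 minus empty vector for each gene at 24 h (grey), 48 h (blue) and 72 h (red), with limma's standard error as bars. ACSS2 lies above 0 at the 3 times, at 0.30, 0.49 and 0.13, and most bars of the other genes reach 0 at 1 or more times.

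Genes that handle cholesterol and fatty acids but lie outside the list were counted in the same fit. Of 12 tested genes of further sterol synthesis and transport, 0 were called for time and 1 for the plasmid average, against 1.71% of all genes. It was NPC2, the lysosomal cholesterol-binding protein, at 691 and 613 units with GRHL1 and 389 and 388 with empty vector at 24 h, 771 and 759 with GRHL1 and 393 and 400 with empty vector at 48 h, and 865 and 751 with GRHL1 and 413 and 427 with empty vector at 72 h. The averaged log2 difference was 1.00 ± 0.06 (adjusted p = 2.42e-05), and NPC2 was called at each time (adjusted p = 0.00871, 0.00152 and 0.00187). Of 5 tested genes around the liver X receptors, the oxysterol-sensing nuclear receptors, 1 was called, against the same 1.71%. It was MYLIP, a ubiquitin ligase that these receptors induce. MYLIP read 703 and 732 with GRHL1 and 541 and 566 with empty vector at 24 h, 824 and 697 with GRHL1 and 486 and 500 with empty vector at 48 h, and 804 and 847 with GRHL1 and 494 and 597 with empty vector at 72 h. Its average was 0.60 ± 0.07 (adjusted p = 0.00229), and no GRHL1 array overlapped an empty vector array.

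Of 23 tested genes of further fatty acid metabolism, 0 were called for plasmid and 1 fell with time, at 72 h, against 0.365% of all genes. ME1, the malic enzyme that supplies NADPH, ranged from 360 to 426 units at 72 h, against 530 to 648 at 24 h, and fell by 0.59 ± 0.09 on the log2 scale (adjusted p = 0.0177). Of 10 further genes of SREBP processing and turnover, 0 were called in any of these comparisons. The median log2 difference of 48 h minus 24 h was -0.16 for the further sterol genes and -0.03 for the further fatty acid genes, beside -0.58 for the sterol genes of the list.

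**Figure D5:**
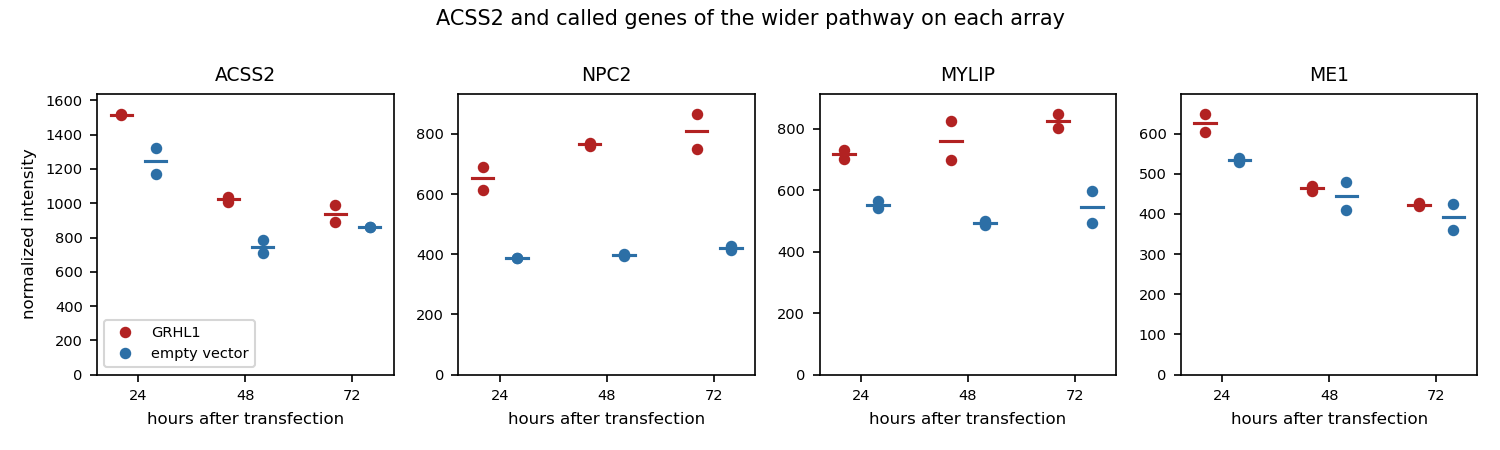
Normalized intensity of ACSS2, NPC2, MYLIP and ME1 on each array against hours after transfection, with GRHL1 cells in red left of empty vector cells in blue and bars at the mean of 2 arrays. NPC2 and MYLIP lie higher in GRHL1 cells at every time, and ME1 lies lower at 72 h than at 24 h in both plasmids.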

How the data were processed

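BE(2)-C cells in 6 groups (plasmid by time, 2 arrays each) were grouped by sample titles. The authors deposited 2 tables of linear intensity for 47323 probes, a scanner table that pairs intensity with a deposited detection p-value, per the file headers, and a normalized table. How it was normalized is not stated in labels or headers. Sample names conflict between them for 7 of 12 columns. Columns were matched by rank correlation (at least 0.999974, next best at most 0.8757), the normalized table's names were used, and the scanner table served only to count detection. Low detection p-values also occur below background (3416 to 4076 probes an array), so detection was p under 0.01 with a signal above background. The limit of 128.3 units is the level below which 95% of undetected probes lay.

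The deposited normalized intensity was taken through limma's normexp (offset 16) to log2, and 1 missing value took its probe's median. Probes naming 1 gene and detected on at least 2 arrays were kept (16501), and the brightest probe stood for its gene (12323 genes). A mean for each group was fitted with lmFit and eBayes (6 residual and 3.72 prior degrees of freedom), and genes were called where the p-value, adjusted over all genes by Benjamini-Hochberg, was under 0.05. Gene symbols came from the platform annotation. The members, lists and motifs were chosen with earlier results of these data known. Named genes were the members called in any of 8 comparisons, the 2 of each branch with the smallest p where fewer were called, and called genes of the other lists. Further members were added as values to account for each. The code was checked on simulated data with planted changes, where the mean estimates had to lie near those changes. Rates of recovered and false calls are not given here. The series' design text calls the controls paired without saying by what. Replicate numbers were checked as pairs: deviations from group means correlated by 0.115, 0.017 and 0.03 at 24, 48 and 72 h, so the fits have no replicate block. Alternatives covered background, offset, scaling, detection filter, probe choice, variance model, replicate block and leaving out each array. Tools were R 4.3.3 with limma 3.58.1 and Python 3.11.15 with pandas 2.3.3 and matplotlib 3.10.9. Promoter windows are from RefSeq, build GRCh38.p14.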

Additional observations from a re-analysis of the deposited data

How the results depend on the processing

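Refits followed 44 differences, those called or with the smallest p of their branch, and none changed sign in 878 refits. They were picked by p in these data, which favours this, and the smaller differences of other named genes were not followed. For 48 h minus 24 h, 10 genes of the list were called, 16 with a trended and robust variance model and 16 without background correction, and 7 to 10 with 1 array left out. For 72 h minus 24 h, 7 were called, 13 with the trended model, 11 without background correction and 3 without a detection filter, and 3 to 8 with 1 array left out; the count was 3 without either GRHL1 array or the first empty vector array of 24 h, or without the first array of either plasmid at 72 h. For 72 h minus 48 h the count went to 1 with the trended model. For GRHL1 minus empty vector, the average called 1 gene, 2 with the trended model, 0 with every probe tested, 0 without a detection filter and 0 to 1 with 1 array left out, and at 48 h 1 was called with the trended model and 1 without background correction. Within GRHL1 cells the counts of 2 at 48 h and 4 at 72 h ranged from 0 to 11 and 0 to 7, and within empty vector cells the counts of 0 and 0 reached 12 and 5. The later arrays against 24 h called 12, and 6 to 18 elsewhere. ACSS2's averaged difference ranged from 0.28 to 0.34, with adjusted p from 0.000914 to 0.14. With the replicate block 0 genes were called for the average, 10 for 48 h minus 24 h and 6 for 72 h minus 24 h, and the calls of ACSS2 (adjusted p = 0.109) and of MVK at 72 h (adjusted p = 0.0624) were lost. The series' design text calls the controls paired but not what pairs them, and same-numbered arrays deviated together only weakly, so the block was not used and whether the arrays are pairs is not settled. At 24 h, at 72 h and for the change with time the count was 0 under every setting. Over all genes, called counts moved more: 64 for 48 h minus 24 h (17 to 290), 107 for 72 h minus 24 h (14 to 453), 211 for the plasmid average (109 to 392) and 47, 55 and 40 at the single times (10 to 123, 19 to 123 and 12 to 97). The lowest counts include fits without a detection filter, which test more genes, and fits with fewer arrays. Dim probes (STARD4, SREBF2, FADS2) limit what their differences can show.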
